A study of Mus musculus with 6 samples.

Results

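The CC chemokine ligands described here were the products of 10 genes, Ccl2, Ccl3, Ccl4, Ccl5, Ccl6, Ccl7, Ccl9, Ccl12, Ccl22 and Ccl24, out of 20283 mouse genes with a named probe. They were chosen by name, and a probe belonged to a member when its transcript accession was that of the member's gene. Each member had 1 probe, and the 10 probes filled 19 spots of the array, since the Ccl2 probe was spotted 10 times. The cells were macrophages grown from bone marrow of C57BL/6 mice aged 6 to 8 weeks and, per the labels, M2-polarized, that is, alternatively activated. They stood for 6 h in complete DMEM alone (medium) or in the same medium with WGP, whole glucan particles, which are yeast cell wall particles made mostly of beta-glucan. The agent that polarized the cells is not given in the sources used here, and neither group was left unpolarized. Total RNA was hybridised to 1-colour (Cy3) Agilent arrays, and 3 files were deposited for each group.

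Chemokines are small secreted proteins that guide leukocytes along concentration gradients, and those of the CC family carry a pair of adjacent cysteines near their amino terminus. They act through G-protein-coupled receptors named Ccr, most of which bind several ligands. Macrophages are a major source of them in inflamed tissue, where Ccl2, Ccl7 and Ccl12 draw monocytes, Ccl3, Ccl4 and Ccl5 draw monocytes and T cells, and Ccl22 and Ccl24 are known as products of macrophages exposed to interleukin-4.

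Replicates 1 and 2 of each group were the independent arrays (n = 2 per group). The files of replicate 3 differed from replicate 1 of the same group in median signal, background or flag at 0 of 44397 spots. In processed signal, medium replicate 3 equalled the average of the other 2 medium files to within 0.695%, and WGP replicate 3 equalled 1.30 times the first WGP file to within 0.488%. Replicate 3 was therefore left out. Between 45% and 50.6% of probes were well above background on the 4 arrays used, and their number limits the precision of every value. Whether replicates are separate cultures or animals is not in the labels, and the spread behind each p-value is that between arrays and may be technical only. Levels are log2 of the processed signal over the array's 75th percentile (56.1 to 85.8), and changes are WGP minus medium on that scale.

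Of 9 macrophage markers with a named probe, all 9 were well above background on every array, Adgre1 (the F4/80 antigen) among them. Of 8 markers of alternative activation 5 were tested, and the list summed to 77.9 to 99.4 relative to the 75th percentile in medium and 64.2 to 64.5 with WGP. Clec10a, Cd163 and Mrc1 fell, the last with its call lost in 4 of 15 alternatives. Cd163 was not well above background with WGP. Its change was -0.17 with normexp and 75th percentile scaling, where its call was lost, beside -3.21 as reported. Mgl2 (-0.17 ± 0.16, SE, adjusted p = 0.437 in limma) and Chil3 did not pass, and Arg1, Retnla and Pdcd1lg2 exceeded background on none of the arrays. The 3 B cell markers reported had a summed level, relative to the 75th percentile, of 0.705 to 0.901 in medium and 0.199 to 0.246 with WGP. Cd79a and Cd79b were lower, with calls lost in 5 and 1 of 14 alternatives, and Ms4a1 exceeded background on none of the arrays. With WGP, Cd79a was well above background on 1 array and Cd79b on 0. With normexp and 75th percentile scaling their changes were -0.034 and -0.32, beside -1.03 and -3.24 as reported. The dendritic cell list summed to 80.6 to 121 in medium and 202 to 215 with WGP, with 2 of 3 tested genes higher (Siglech, lost in 4 of 15 alternatives, and Ccr7) and Flt3, Xcr1, Clec9a and Cd209a not well above background on any array. The mast cell, basophil and eosinophil list summed to 0.373 to 3.19 and 0.598 to 0.703, with 1 of 1 tested gene (Siglecf) higher and 5 of 7 markers above background on no array. The fibroblast list summed to 10.5 to 15.1 and 11.5 to 12.1, with 1 of 4 tested genes lower (Col3a1, not well above background with WGP, whose call was lost with normexp). None of 5 tested neutrophil markers passed the test (summed level 108 to 122 and 105 to 110), nor did any of 3 tested T and NK cell markers (33.2 to 34.9 and 28.3 to 35.2). Each sum is led by the brightest probes of its list, such as Mgl2 for alternative activation, so it does not measure a cell type. The part of these cells in the values below was not tested, and in bulk RNA fewer cells of a type and less RNA per cell cannot be told apart.

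The comparison of WGP with medium asked how the ligand transcripts changed during 6 h with the particles. Ccl5, Ccl2 and Ccl9 rose, Ccl3 fell slightly, and Ccl4, Ccl6 and Ccl24 did not pass the test. Ccl7, Ccl12 and Ccl22 were too dim to be tested. Thus 7 of 10 members were tested, and 4 of these 7 passed an adjusted p of 0.05 in limma's test with Benjamini-Hochberg adjustment over 10947 genes, of which 40.5% passed. The 3 that rose stand against 23.2% of all genes and the 1 that fell against 17.4%. The same 3 changed at least 2-fold, as did 14.7% of all genes. With no filter on dim probes 3 members passed, beside 7.56% of 20274 genes. A member that passed the filter had to be bright in at least 1 group, so the 7 are not all members. Their median change was 0.63, beside 0.028 for all genes tested. This median is the change of Ccl24, the dimmest tested member, and it was -0.034 without medium replicate 2, 1.39 without medium replicate 1, and 0.19 or 0.081 with background correction by normexp.

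**Figure D1:**
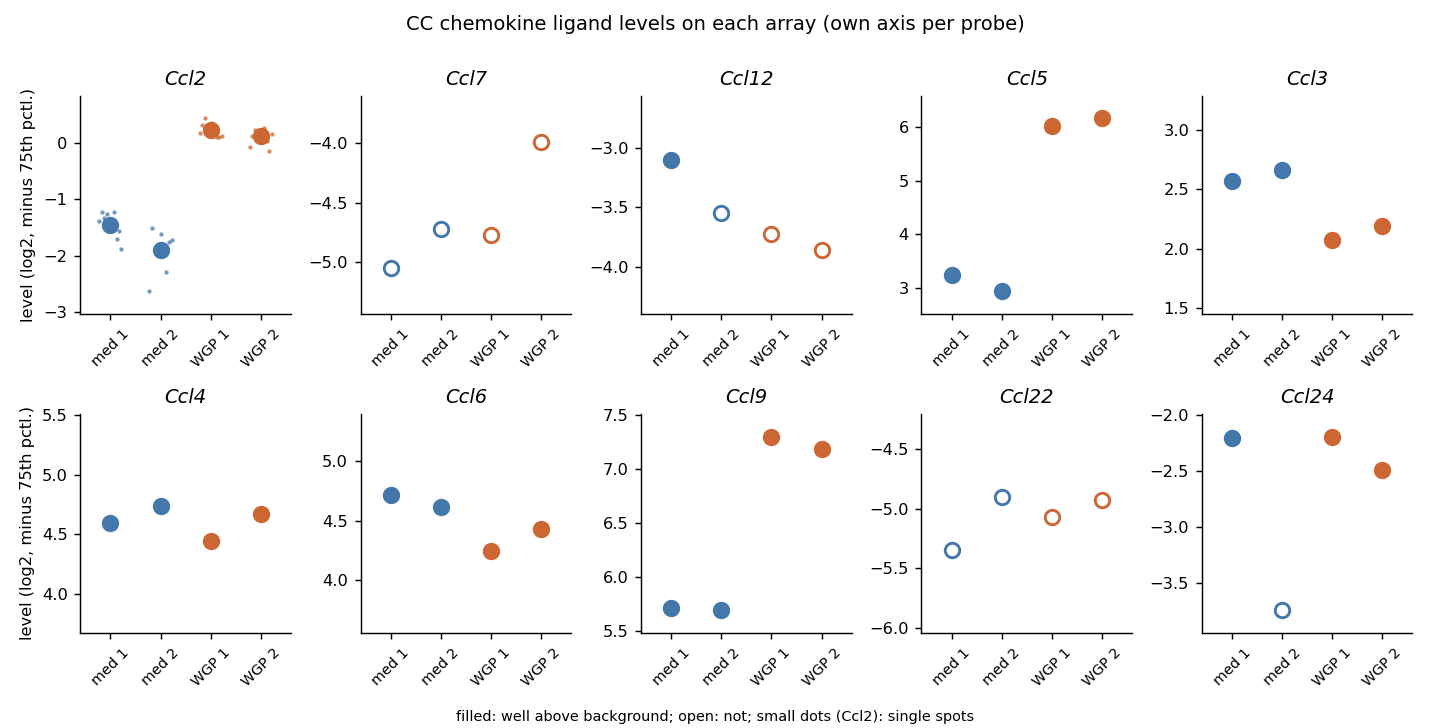
Level of each CC chemokine ligand probe on the 4 independent arrays, on the log2 scale relative to the 75th percentile, with an axis of its own for each probe. Blue stands for medium and orange for WGP, filled points were well above background and open points were not, and small dots for Ccl2 are single spots. The WGP points of Ccl2, Ccl5 and Ccl9 lie above their medium points, those of Ccl3 lie below, and Ccl22 has open points only.

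Ccl5, also called RANTES, attracts T cells, monocytes and eosinophils. Its processed signal was 809 and 527 on the medium arrays and 3810 and 4000 on the WGP arrays. On the scaled log2 level these were 3.24 and 2.94 in medium and 6.01 and 6.16 with WGP, and the groups did not overlap. Groups did not overlap for 5 of the 7 tested members, beside 75.1% of all genes. The rise of Ccl5 was 7.96-fold (2.99 ± 0.15 on the log2 scale, SE, 95% interval 2.59 to 3.39, adjusted p = 0.00159 in limma), and it ranked 91 among the rises of the 10947 genes. It came to 2.77 on slide 1 and 3.21 on slide 2, each slide holding 1 array of each group and hence no test of its own.

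Ccl2, the monocyte attractant that signals through Ccr2, was dim in both groups but was measured on 10 spots per array. In medium replicate 1 the processed signal of these spots ran from 23.3 to 36.9 with a median of 32.9. In medium replicate 2 it ran from 11.1 to 24 with a median of 19.3 over 9 spots, after 1 outlier spot at 44.2 was left out. With WGP the spots ran from 63.4 to 79.5 (median 67.6) in replicate 1 and from 50.4 to 67.1 (median 62.4) in replicate 2. Every WGP spot was thus brighter than every medium spot used. Spots of an array share its RNA and are not replicates, so they entered the test as 1 mean level per array. These means were -1.45 and -1.90 in medium and 0.22 and 0.11 with WGP, and the SD over spots lay between 0.11 and 0.35. Ccl2 rose 3.57-fold (1.84 ± 0.18 on the log2 scale, SE, n = 2 arrays per group, adjusted p = 0.00506 in limma), by 1.67 on slide 1 and 2.00 on slide 2. With normexp, whose offset of 50 shrinks changes of dim probes by construction, the rise was 0.75 or 0.72 on the log2 scale and the call stood (adjusted p = 0.000291 and 0.000435 in limma).

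Ccl7 and Ccl12, the other Ccr2 ligands of the set, lie in a row with Ccl2 on chromosome 11. Ccl7 had 0 arrays well above background, with levels of -5.04 and -4.72 in medium and -4.77 and -3.99 with WGP. The negative control spots of these arrays had 95th percentiles of -5.08 and -4.72 in medium and -4.73 and -4.67 with WGP, so Ccl7 lay above that mark on medium replicate 1 and WGP replicate 2 and below it on the other arrays. Ccl12 was well above background on medium replicate 1 (-3.10) but not on medium replicate 2 (-3.55) or with WGP (-3.72 and -3.86). All 4 Ccl12 levels were above the 95th percentile of the negative controls, and both WGP levels were below both medium levels. Neither gene entered the reported test. With no filter on dim probes the difference was -0.47 for Ccl12 (adjusted p = 0.304 in limma) and 0.50 for Ccl7 (adjusted p = 0.478 in limma), and neither passed.

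**Figure D2:**
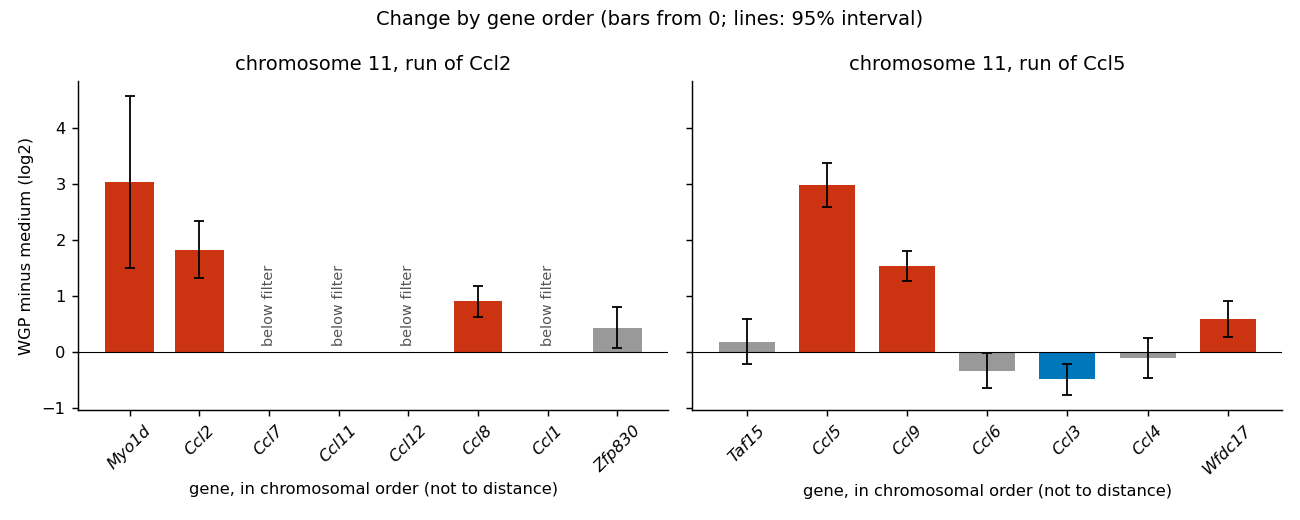
Change of the CC ligand genes of chromosome 11 and of the tested gene on each side, WGP minus medium on the log2 scale, in chromosomal order without distances or the pseudogene Ccl16-ps. Bars start at 0, lines are 95% intervals of limma's fit without adjustment, red genes rose, blue fell, grey did not pass, and Myo1d was not well above background in medium. In the right panel Ccl5 and Ccl9 stand above 0, and Ccl6, Ccl3 and Ccl4 at or below it, with Ccl4 above 0 after median scaling.

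On chromosome 11, in gene order of the RefSeq assembly GRCm38.p6, Ccl2, Ccl7, Ccl11, Ccl12, Ccl8 and Ccl1 follow each other, and further on Ccl5, the pseudogene Ccl16-ps, Ccl9, Ccl6, Ccl3 and Ccl4 do so. Coordinates of the probes are not given, since the array design rests on an older build. In the first row Ccl2 and Ccl8 rose, and the other 4 genes were below the filter. Ccl8 is a ligand of Ccr8 in mice and is no member of the set, and it rose 1.88-fold (0.91 ± 0.10, SE, adjusted p = 0.00626 in limma, and 0.0534 without WGP replicate 2), by 0.32 or 0.23 with normexp. The tested gene before this row, Myo1d, was at least 4.06-fold higher with WGP and not well above background in medium (adjusted p = 0.0194 in limma). With normexp its log2 change was 0.59 or 0.50, beside 3.04 as fitted. The Myo1d call was lost with no filter (0.0748) and without WGP replicate 1 (0.0642) or WGP replicate 2 (0.0815), in limma. The tested gene after this row, Zfp830, did not pass (0.44 ± 0.14, SE, adjusted p = 0.0664 in limma), but did so in 5 of 15 alternatives. In the second row 2 of the 5 members rose and 1 fell. The row is flanked by Taf15, which did not pass (0.19 ± 0.15, SE, adjusted p = 0.351 in limma), and Wfdc17, a WAP domain gene, which rose (0.59 ± 0.12, SE, adjusted p = 0.0239 in limma). The Wfdc17 call was lost with quantile normalization (0.0505), with no filter (0.113), and when medium replicate 2 (0.0997), WGP replicate 1 (0.117) or WGP replicate 2 (0.0959) was left out, in limma.

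Ccl9, a Ccr1 ligand of mice with no direct human counterpart, follows Ccl5 and the pseudogene in this row. The medium arrays gave processed signals of 4510 and 3560, the WGP arrays 9310 and 8190. The levels were 5.72 and 5.70 in medium and 7.30 and 7.19 with WGP, so that replicates lay close together and the groups far apart. Ccl9 rose 2.90-fold (1.54 ± 0.098 on the log2 scale, SE, 95% interval 1.27 to 1.81, adjusted p = 0.00231 in limma), by 1.58 on slide 1 and 1.49 on slide 2.

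Ccl6, the next gene and also a Ccr1 ligand, was slightly lower with WGP. Its levels were 4.71 and 4.61 in medium and 4.24 and 4.43 with WGP, without overlap. The difference of -0.33 ± 0.12 (SE, 95% interval -0.65 to -0.0078) did not pass (adjusted p = 0.0923 in limma). Quantile normalization made it pass (-0.50, adjusted p = 0.0310), as did normexp before 75th percentile scaling (-0.46, adjusted p = 0.0157) or quantile normalization (-0.44, adjusted p = 0.00768), each in limma.

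Ccl3 and Ccl4, known as the macrophage inflammatory proteins, close the row. Ccl3 had levels of 2.57 and 2.66 in medium and 2.08 and 2.19 with WGP. The groups did not overlap, and Ccl3 fell 1.40-fold (log2 change -0.48 ± 0.10, SE; adjusted p = 0.0275 in limma). The change was -0.50 on slide 1 and -0.47 on slide 2. The call was lost with median scaling, where the change was -0.32 (adjusted p = 0.165), with no filter on dim probes at the same change (adjusted p = 0.135), and when any of the 4 arrays was left out (adjusted p = 0.0637 without medium replicate 1, 0.116 without medium replicate 2, 0.147 without WGP replicate 1 and 0.109 without WGP replicate 2), all in limma. With 1 array left out, and hence fewer samples, the change stayed between -0.54 and -0.43. Ccl4 had levels of 4.59 and 4.74 in medium and 4.45 and 4.67 with WGP, which overlapped. Its difference was -0.11 ± 0.13 (SE, 95% interval -0.46 to 0.25, adjusted p = 0.548 in limma), and it turned positive with median scaling (0.059). Before scaling, the signals of Ccl3, Ccl4 and Ccl6 differed more between the groups, for Ccl4 2070 and 1830 in medium against 1290 and 1430 with WGP, while the 75th percentile itself stood at 85.8 and 68.6 on the medium arrays and at 59.2 and 56.1 on the WGP arrays.

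**Figure D3:**
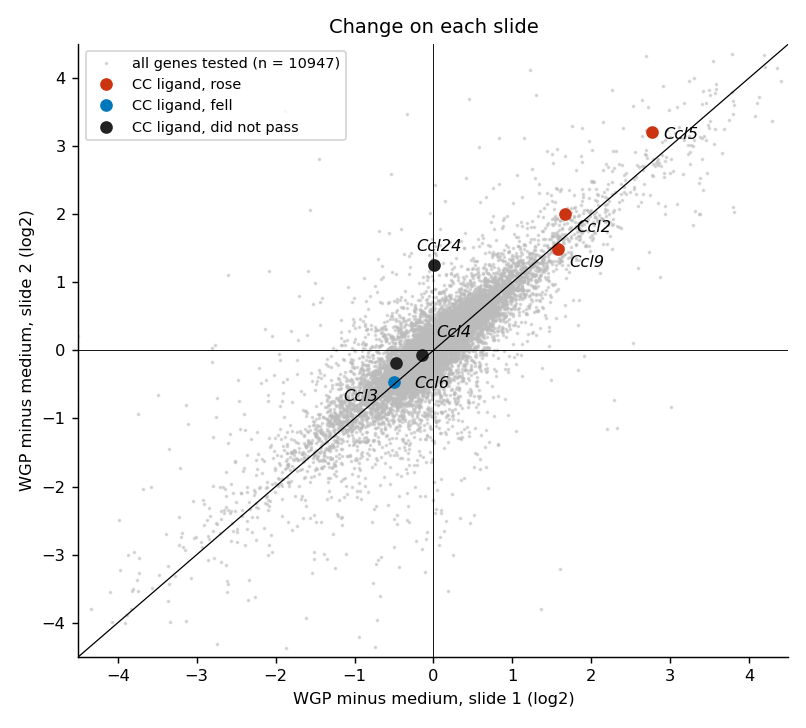
Change on slide 1 (horizontal) and slide 2 (vertical), WGP minus medium on the log2 scale, for all 10947 tested genes (grey) and the 7 tested CC ligands (coloured), with the line of equal change; 41 genes lie outside the axes, which end at 4.5. Ccl5, Ccl2 and Ccl9 lie near the line at the upper right, Ccl3, Ccl4 and Ccl6 near its centre, and Ccl24 lies off the line at 0.0074 on slide 1 and 1.25 on slide 2.

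Of the 10 members, 5 had an entry in RefSeq's promoter sequences (GRCm38.p6), namely Ccl3, Ccl6, Ccl9, Ccl12 and Ccl22. The 250 bases before the annotated start are shown for Ccl9, Ccl6 and Ccl3, because these genes follow each other on the chromosome and, of the 3, only Ccl9 rose, while Ccl6 did not pass and the call of Ccl3 was lost in 6 of 15 alternatives. Capitals mark matches, on either strand, to the NF-kappaB consensus, to the AP-1 motif TGANTCA, to the STAT6 motif, to the PU.1 motif GAGGAA, to the TATA motif TATAAA or to the C/EBP motif TTGCNNCAA. Each is written 5′ to 3′ on the gene's strand, the minus strand. The Ccl9 window is chr11:83578637-83578886, the Ccl6 window chr11:83593088-83593337 and the Ccl3 window chr11:83649379-83649628.
Ccl9: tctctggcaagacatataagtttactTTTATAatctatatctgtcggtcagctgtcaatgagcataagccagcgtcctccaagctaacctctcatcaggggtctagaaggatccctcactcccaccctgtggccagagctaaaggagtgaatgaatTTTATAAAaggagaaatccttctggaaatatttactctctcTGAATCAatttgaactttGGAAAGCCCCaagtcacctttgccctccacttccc
Ccl6: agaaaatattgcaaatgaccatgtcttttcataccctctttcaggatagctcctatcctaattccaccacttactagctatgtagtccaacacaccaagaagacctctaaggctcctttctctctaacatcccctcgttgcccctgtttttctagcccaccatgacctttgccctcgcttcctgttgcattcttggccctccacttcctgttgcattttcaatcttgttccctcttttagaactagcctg
Ccl3: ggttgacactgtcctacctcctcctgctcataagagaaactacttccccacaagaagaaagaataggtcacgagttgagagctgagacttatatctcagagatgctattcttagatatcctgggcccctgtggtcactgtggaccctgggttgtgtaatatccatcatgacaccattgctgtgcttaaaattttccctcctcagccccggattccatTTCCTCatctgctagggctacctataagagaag
The Ccl9 window held an NF-kappaB match from 35 to 26 bases before the start, an AP-1 match from 53 to 47 bases before it, and 3 TATA matches, of which 2 overlap. The Ccl6 window held none of these motifs, and the Ccl3 window held 1 PU.1 match from 33 to 28 bases before the start. The longest run common to the Ccl9 and Ccl6 windows was 13 bases. Among all 32851 promoter windows of this length, 7.25% held an NF-kappaB match, 6.75% AP-1, 5.85% STAT6, 23.2% PU.1, 12.4% TATA and 1.74% C/EBP. Of the 5 members with an entry, 1 held an NF-kappaB match, 1 AP-1, 2 PU.1, 2 TATA, and 0 STAT6 or C/EBP. Such matches describe the letters of these windows, and binding was not measured here.

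Ccl22 and Ccl24 are ligands associated with type 2 responses, Ccl22 acting on Ccr4 of T helper cells and Ccl24 on Ccr3 of eosinophils. Ccl22, on chromosome 8, had 0 arrays well above background, and its levels of -5.35 and -4.90 in medium and -5.07 and -4.92 with WGP lay below the 95th percentile of the negative controls on all 4. Ccl17, the other Ccr4 ligand, likewise had 0 such arrays. The tested gene after Ccl22 on the chromosome, Cx3cl1, which encodes the ligand of Cx3cr1, was at least 2.19-fold higher with WGP (adjusted p = 0.0190 in limma) and not well above background in medium. The Cx3cl1 call was lost with normexp and quantile normalization (0.131), with no filter (0.0754), and without medium replicate 2 (0.0899) or WGP replicate 2 (0.0752), in limma. The one before it, Arl2bp, did not pass (0.21 ± 0.092, SE, adjusted p = 0.143 in limma).

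Ccl24, on chromosome 5, had levels of -2.21 and -3.74 in medium and -2.20 and -2.49 with WGP, and was well above background on 3 of these arrays but not on medium replicate 2. The groups overlapped, and the medium arrays lay far apart (SD 1.08). The difference of 0.63 ± 0.55 (SE, 95% interval -0.86 to 2.12) did not pass (adjusted p = 0.405 in limma). It rested on medium replicate 2. Without that array it was -0.14 (adjusted p = 0.621), and without medium replicate 1 it was 1.39 (adjusted p = 0.0282), both in limma. Each of these fits has 1 medium array, which is assumed to vary as the WGP arrays do, and in the second that array was not well above background for Ccl24. Ccl24 lies beside Ccl26. Of the tested genes on either side of this pair, Hip1 fell (-1.10 ± 0.20, SE, adjusted p = 0.0175 in limma) and Rhbdd2 did not pass (0.083 ± 0.18, SE, adjusted p = 0.738 in limma). The Hip1 call was lost when normexp preceded 75th percentile scaling (-0.19, with an adjusted p of 0.108), with no filter (0.0769), and when medium replicate 1 (0.0726), medium replicate 2 (0.0997) or WGP replicate 2 (0.0526) was left out, in limma.

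**Figure D4:**
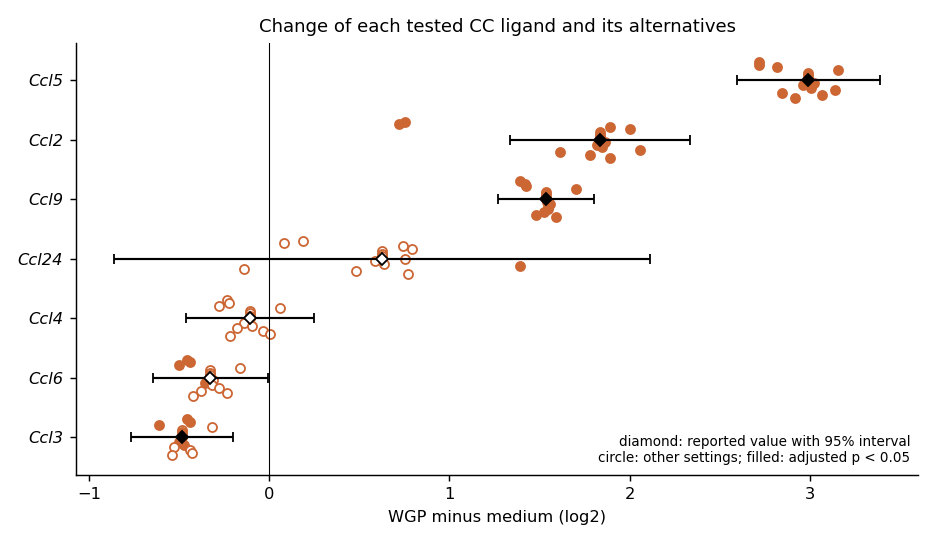
Change of each tested CC ligand, WGP minus medium on the log2 scale: diamonds are the reported values with their 95% interval, circles the same change under other settings, and filled symbols passed an adjusted p of 0.05 in limma. All symbols of Ccl5, Ccl2 and Ccl9 are filled and to the right of 0, with Ccl2 at 0.72 to 2.06, while symbols of Ccl4 and Ccl24 lie on both sides of 0.

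When arrays were scaled to their median instead, the change of the median gene went from 0.028 to 0.19, and 72.7% of the changed genes were higher, against 57.2% as reported. Relative to the median of all genes the changes were, under either scaling, 2.96 for Ccl5, 1.81 for Ccl2, 1.51 for Ccl9, -0.13 for Ccl4, -0.36 for Ccl6 and -0.51 for Ccl3. They are equal under both by construction, since each scaling shifts all genes of an array by the same amount. With normexp and 75th percentile scaling these relative changes were 2.68 for Ccl5, 0.71 for Ccl2 and 1.35 for Ccl9. For Ccl4, Ccl6 and Ccl3 they were then -0.28, -0.50 and -0.50. Of 7 members, Ccl5, Ccl2 and Ccl9 rose under all 15 alternatives tried, several of which could not alter the change itself.

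Few receptors of CC ligands could be tested. Of 10 receptor genes reported 3 were tested, of which 1 fell and 1 rose, with a median change of 0.27. Of all genes 17.4% fell and 23.2% rose. Ccr9, the receptor of Ccl25, fell 1.93-fold (-0.95 ± 0.11, SE, adjusted p = 0.00628 in limma). The Ccr9 call was lost with normexp, where the change came to -0.063 or -0.16 (adjusted p = 0.579 and 0.102), and without WGP replicate 2 (adjusted p = 0.0525), in limma. Ccr7, which guides cells to lymph nodes along Ccl19 and Ccl21, rose 1.80-fold (0.85 ± 0.20, SE, adjusted p = 0.0370 in limma). The Ccr7 call was lost with the slide as a replicate block (adjusted p = 0.0553), with no filter on dim probes (0.131), and when medium replicate 2 (0.109) or either WGP array (0.0823 for replicate 1, 0.154 for replicate 2) was left out, in limma. Ccr3, the receptor of Ccl24 and Ccl5, did not pass (0.27 ± 0.10, SE, adjusted p = 0.0997 in limma). Ccr1 had 0 arrays well above background. Ccr2, the receptor of Ccl2, had levels of -1.75 and -2.46 in medium and -4.88 and -3.33 with WGP, and only medium replicate 1 was well above background, so that it was not tested. Ccr1l1, Ccr4, Ccr6, Ccr8 and Ccr10 likewise had 0 such arrays.

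**Figure D5:**
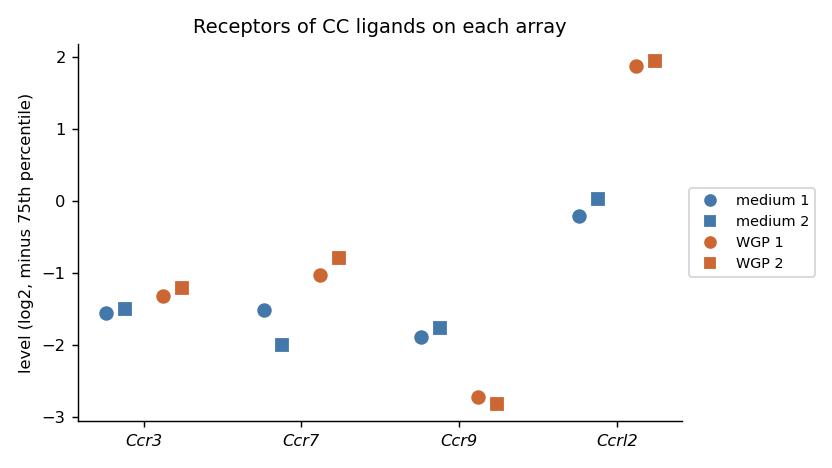
Levels of 3 tested receptors of CC ligands and of Ccrl2 on each array, on the log2 scale relative to the 75th percentile; blue is medium, orange is WGP, circles are slide 1 and squares slide 2, and levels of different genes are not comparable. The WGP points of Ccr9 lie below its medium points, and those of Ccr7 and Ccrl2 above.

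Ccrl2, an atypical receptor that binds the chemoattractant chemerin, rose 4.01-fold (2.00 ± 0.12, SE, adjusted p = 0.00221 in limma; 1.36 or 1.38 with normexp), and was the only 1 of 5 atypical receptor genes that was tested. Of the 9 CC ligand genes outside the set with a named probe, 3 were tested. Beside the rise of Ccl8, Ccl27a was 3.48-fold lower (-1.80 ± 0.14, SE, adjusted p = 0.00307 in limma; -0.81 or -0.84 with normexp), although near-identical copies of this gene may share its probe, and Ccl25 did not pass (0.30 ± 0.14, SE, adjusted p = 0.156 in limma). Among 8 tested ligands of the CXC, CX3C and C families, 6 rose and 0 fell, with a median of 2.08. Of all genes 23.2% rose and 17.4% fell. Of 16 such ligands with a named probe, 5 were well above background on each medium array. Some that rose, Cx3cl1 among them, entered the test through WGP alone, so the count and the median depend on the filter. Pf4, a platelet-type chemokine, rose 4.87-fold, Cxcl10, an attractant of activated T cells, 4.61-fold, and the membrane-bound Cxcl16 3.13-fold, at an adjusted p of 0.0034, 0.00142 and 0.00192 in limma. With normexp the log2 change of Cxcl10 was 1.11 or 1.08, beside 2.20 as reported.

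Genes whose products hold or cut chemokines, or make heparan sulfate, were tested for 10 of 13, with 4 higher and 3 lower and a median of 0.44. Of all genes 23.2% rose and 17.4% fell. The membrane metalloproteinase Mmp14, which can cleave CC ligands, rose 42.6-fold with 1 of 2 medium arrays well above background (adjusted p = 0.00129 in limma). The heparan sulfate proteoglycan Sdc1 rose 13.4-fold (adjusted p = 0.0014 in limma), the heparan sulfate polymerase Ext1 2.21-fold (adjusted p = 0.00636 in limma) and the hyaluronan receptor Cd44 2.01-fold (adjusted p = 0.00705 in limma). With normexp the log2 changes were smaller, at 2.58 or 2.51 for Mmp14 (5.41 as reported), 1.80 or 1.76 for Sdc1 (3.75) and 0.37 or 0.30 for Ext1. Leaving out medium replicate 2 ended the call of Ext1 (adjusted p = 0.0538), and leaving out WGP replicate 2 that of Cd44 (adjusted p = 0.0541), in limma. Sdc3, Ndst1 and Ndst2 were the 3 that fell, with calls lost in 4, 6 and 6 of 15 alternatives.

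The list drawn up for the stability of chemokine mRNA also holds Tnfaip3 and Ptgs2, which are not decay factors themselves. Of its 11 genes 8 were tested, 5 rose, Tnfaip3 among them, and 1 fell, with a median of 0.51. Of all genes 23.2% rose and 17.4% fell. The gene that fell was Zfp36l1, which encodes a protein that binds AU-rich elements and promotes decay. Its levels were 4.88 and 4.87 in medium and 2.03 and 2.09 with WGP, a 7.01-fold fall (-2.81 ± 0.093, SE, adjusted p = 0.00129 in limma). Tnfaip3, an inhibitor of NF-kappaB signalling, rose 6.76-fold (adjusted p = 0.00139 in limma), the decay factor Rc3h1 1.97-fold (adjusted p = 0.00509 in limma) and the stabilising protein Elavl1 1.84-fold (adjusted p = 0.00696 in limma). The Elavl1 call was lost without medium replicate 2 (0.0505) or WGP replicate 2 (0.0573), in limma, and the log2 change of Tnfaip3 was 1.66 with normexp, beside 2.76 as reported. Zfp36 and Zc3h12a had 0 arrays well above background.

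Of 26 transcription factors known to act on chemokine genes, 22 were tested, 13 rose and 3 fell, with a median of 0.86. Of all genes 23.2% rose and 17.4% fell. Of the NF-kappaB subunits, Relb rose by 1.38 ± 0.11, Nfkb1 by 1.06 ± 0.092, Nfkb2 by 0.97 ± 0.13 and Rela by 0.59 ± 0.13 (log2, SE), at adjusted p-values of 0.00327, 0.00381, 0.0085 and 0.0301 in limma, and Rel had 0 arrays well above background. The call of Rela was lost in 6 of 15 alternatives and that of Nfkb2 in 2, while Relb and Nfkb1 kept theirs in all 15. Among the largest changes, Egr2 rose by 2.80 ± 0.12 and Cebpb by 2.67 ± 0.11, while the changes of Nfatc2 and Maf were -2.97 ± 0.16 and -2.55 ± 0.091 (log2, SE, adjusted p between 0.00129 and 0.00185 in limma). With normexp these came to 1.89 or 1.90 for Egr2 and -1.96 for Nfatc2. Stat6, the factor through which interleukin-4 signals, did not pass (-0.014 ± 0.094, SE, adjusted p = 0.916 in limma), and its sign turned with median scaling (0.15).

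Likeness to a member was taken as the Euclidean distance between levels over the 4 arrays after subtracting each gene's mean. The 3 genes nearest to Ccl5, the member with the largest rise, were Skil, Slc39a4 and Ubtd2, at distances of 0.146, 0.149 and 0.15. Skil had levels of -0.70 and -0.96 in medium and 2.26 and 2.27 with WGP, and Ubtd2 was not well above background in medium. Those nearest to Ccl3, the member that fell, were Cyp2d26, 4932438A13Rik and Bckdhb, at distances of 0.0147, 0.0296 and 0.033, and their calls were lost in 9, 9 and 8 of 15 alternatives.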

How the data were processed

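Per the submitters' processing notes, the scanner software was Agilent Feature Extraction 10.7.3. The deposited processed signal is an intensity after background subtraction and spatial detrending, not normalized between arrays, per the file headers. A deposited table of log2 values, centred per probe on an unknown baseline, followed the scanner levels (largest difference 0.00996 after centring) and served as an alternative; its column medians were -0.0145, 0.164 and 0.103 for medium and 0.0997, 0.130 and 0.100 for WGP. The members and lists were chosen with earlier results of these data known.

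All 1377 control spots were removed, with 118 to 183 outlier spots on each array; 0 were saturated. Log2 levels relative to the 75th percentile were averaged per probe. RefSeq named 26761 of 39429 probes (67.9%) through their accessions (GRCm38.p6); where a probe lies in its transcript is not given in the sources used here. A probe was kept if well above background (a share of at least 0.5 of its spots) on both arrays of at least 1 group, and the brightest kept probe stood for a gene. The test was that of limma 3.58.1 under R 4.3.3 (2 residual and 2.19 prior degrees of freedom), tested on simulated data, with Benjamini-Hochberg adjustment over 10947 genes. On the simulated data it recovered 1.49% of changes of 0.5, 65.7% of changes of 1 and 97.0% of changes of 2. Of 117 calls there, 8 were false. The simulation changed 67, 67 and 66 of 10947 genes at these sizes, a far smaller share than the 40.5% called in the data. The adjustment is stricter where fewer genes change, so these rates may not carry over to the data. Where a gene was not well above background in a group, "at least" sets the bright group's mean against, per array, the higher of the gene's own level and the lowest level well above background. Named were all members, the receptors, the genes beside members, and per list up to 4 called genes of largest change measured in both groups, and the 3 genes most like the members with the largest rise and fall; the NF-kappaB subunits, Stat6, the genes that fell in the binding list, Ccl25, the cell type markers and genes below the filter were named after their values were seen. Some genes of the lists are not reported here.

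Per the file headers, replicates 1 and 2 each had 1 slide and 1 scan, holding medium at position 1 and WGP at position 3. Deviations from the group means correlated at 0.14 between arrays of a slide.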

Additional observations from a re-analysis of the deposited data

How the results depend on the processing

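Over 15 alternatives, Ccl5, Ccl2 and Ccl9 kept their direction and their call, with changes of 2.72 to 3.16, 0.72 to 2.06 and 1.39 to 1.70. Not all of these alternatives are separate checks. The mean over probes, both changes of the filter and the replicate block left the changes of these genes as they were and altered only their p-values. The deposited log2 table follows the scanner levels, and settings that bring in replicate 3 add no new array. The count of changed members lay between 3 and 5 (4 as reported), and was 4 with the slide as a replicate block, which changed the call of no member and of Ccr7 among the receptors; the count of changed genes was 4086 with the block and 4439 without. That count was 1532 of 20274 with no filter on dim probes, 7449 with every file as its own sample, where copies of an array count as replicates, and 1712 to 3341 when 1 array was left out (1712 without WGP replicate 2, 1886 without medium replicate 2, 2238 without WGP replicate 1). Changes of at least 2-fold numbered 1611, and 559 or 560 with normexp followed by 75th percentile scaling or quantile normalization; without 1 array they numbered 1548 to 1820. The sign of 1 called value changed, that of Col3a1 (0.093 with normexp and 75th percentile scaling). The other sign changes were in values that had not passed: Ccl4 (0.059 with median scaling; -0.22 to 0.0069 when 1 array was left out, the latter without WGP replicate 1), Ccl24 (-0.14 without medium replicate 2 and up to 1.39), Rhbdd2 (-0.15 without medium replicate 2 and up to 0.31), Chil3 (0.13 or 0.0077 with normexp), Mgl2 (-0.36 to 0.020 when 1 array was left out), Stat6 (0.15 with median scaling, -0.045 to 0.017 when 1 array was left out) and Adgre1 (0.12 with median scaling, -0.13 to 0.039 when 1 array was left out). Ccl6 also passed with every file as its own sample (adjusted p = 0.0044 in limma). Of 56 other named genes, 22 kept direction and call throughout, 24 lost a call in at least 1 alternative and 6 gained one. The probe-level fit over 18442 probes gave the members the same calls. Each member has 1 probe, so its levels and change were those of the gene-level fit. Only the spread shared across features and the adjustment differed. Signal limits Ccl7, Ccl12, Ccl22 and Ccl24, whose probes lay near background.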
